A study of Mus musculus with 35 samples.

Results

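The integrated stress response regulators described here are 10 genes of the ATF4 and CHOP branch, chosen by gene name: Atf4, Ddit3, Trib3, Chac1, Sesn2, Nupr1, Ddit4, Atf3, Ppp1r15a and Atf5. They were taken from a table of 54354 genes measured by RNA-seq in 35 libraries of mouse colon tumour organoids, epithelial cultures grown in vitro, all with the genotype label AKP. In the palmitic acid experiment there were 3 control libraries, 3 libraries treated with palmitic acid in batch 1 and 2 treated with palmitic acid in batch 2. In the carmofur experiment there were 12 control libraries and 15 libraries treated with carmofur. Palmitic acid is a saturated fatty acid, and carmofur is a fluoropyrimidine drug that also inhibits ceramidase, the enzyme that breaks down ceramide. The study asked how fatty acid and ceramide levels change transcription in these organoids. The sources used here give no dose, treatment time, vehicle or number of organoid lines.

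The integrated stress response begins when a kinase that senses unfolded protein, amino acid lack, viral RNA or mitochondrial damage phosphorylates the initiation factor eIF2alpha. General translation then slows, while the messenger of the transcription factor ATF4 is translated better, so the level of Atf4 mRNA does not measure the amount of ATF4 protein. ATF4 induces genes of amino acid supply together with CHOP (gene Ddit3), ATF3, ATF5 and feedback genes such as Trib3 and Ppp1r15a.

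Total estimated counts ran from 762888 to 3742289 in the palmitic acid experiment and from 1663750 to 10609563 in the carmofur experiment. Levels are CPM, counts scaled to a common library size, with TMM scaling within each experiment, and 3 counts, the limit that a count of 0 allows, correspond to between 0.290 and 3.85 CPM. Palmitic acid control 1 was the shallowest library. Carmofur control 1 and carmofur libraries 8 and 10 stood apart, with a median correlation to their own group of 0.740, 0.747 and 0.750, against 0.775 to 0.829 in the other 24 libraries of that experiment. Of 10 colon epithelium markers, 8 were detected at 7.89 CPM or more in every library, while Krt20 and Cdx2 fell to 0 and 0.321 CPM in the lowest. The summed level of 10 mesenchymal markers was at most 6.80 CPM. The sum of 10 immune markers ran from 26.7 to 92.8 CPM in carmofur controls, from 7.31 to 164 CPM with carmofur and from 21.8 to 51.9 CPM in the palmitic acid experiment. Among these, Cd68, a lysosomal protein of macrophages, was present in every library (7.18 to 164 CPM), whereas Cd3e, Adgre1, Csf1r and Tyrobp were at 0 throughout. The sum of 10 endothelial and blood cell markers ran from 7.72 to 24.9 CPM, with Pecam1 in every library and Cdh5 and Kdr at 0. The part of these markers in the members' values was not tested. Nothing in the labels says whether the libraries of a group are separate cultures, so p-values reflect only how far these libraries spread, possibly for technical reasons. In bulk RNA, fewer cells of a type and less RNA per cell cannot be told apart.

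Per kilobase of exon, the members spanned a wide range of levels in the 12 carmofur controls. Nupr1, which encodes a small stress-induced chromatin protein, had the highest median at 883 CPM per kb (range 619 to 1064). Atf4 followed at 47.1 (39.0 to 62.0), with no overlap with Nupr1. Ddit3 was at 18.0 CPM per kb, but its range of 6.82 to 56.7 overlapped that of Atf4. Trib3 (7.13), Ddit4 (6.32), Ppp1r15a (6.25), Atf3 (6.002) and Chac1 (4.31) had medians close together and overlapping ranges, so their order is not resolved by these libraries. Atf5 had a median of 2.29 CPM per kb, and Sesn2 a median of 0. In the palmitic acid controls Nupr1 (873 CPM per kb), Atf4 (36.4) and Ddit3 (19.6) were again the most abundant members by median. Ddit3 shares 68 bp of exon with Mars on the opposite strand, and Atf5 shares 82 bp with Nup62. The library kit keeps strand, but the sources used here do not state the strand setting of the quantification.

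Promoter sequences were searched because several members are known ATF4 targets. A further reason was that the fold changes with carmofur of the 9 members tested, given below, all lay below 0. All 10 members matched the RefSeq promoter table (GRCm38.p6), and the 250 bases before each start site were searched on both strands. The C/EBP-ATF composite element, TGATGNAA, through which ATF4 acts on many targets, was present in 3 members (Atf3, Chac1 and Nupr1) and in 3.45% of 32851 promoters. The letters TGCAAT, part of the sites bound by C/EBP factors and CHOP, were present in 2 members (Trib3 and Nupr1) and in 7.32% of promoters; in Nupr1 they overlap the composite element. The cAMP response element core TGACGT was present in 2 members (Atf3 and Ppp1r15a) and in 6.47% of promoters. A match is a description of these letters only. The stretches around the matches of Chac1, Atf3 and Trib3 are shown to place the motif in its promoter, 5′ to 3′ on the strand of the gene, with matched letters in capitals. TTGCATCA is the composite element read on the opposite strand.
Chac1 (chr2:119350992-119351076, plus strand): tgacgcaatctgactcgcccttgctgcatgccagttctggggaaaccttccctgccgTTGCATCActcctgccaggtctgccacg
Atf3 (chr1:191183416-191183503, minus strand): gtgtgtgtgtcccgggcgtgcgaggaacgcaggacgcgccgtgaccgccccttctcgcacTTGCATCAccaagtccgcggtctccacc
Trib3 (chr2:152344065-152344150, minus strand): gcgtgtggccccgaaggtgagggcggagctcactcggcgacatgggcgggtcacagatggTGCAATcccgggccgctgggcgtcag
The composite element ended 186 bases before the start site in Chac1 and 103 bases before it in both Atf3 and Nupr1. In Trib3 the TGCAAT letters ended 25 bases before the start site.

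Carmofur libraries had less Atf4 and Trib3 mRNA than their controls, and no member tested was called higher. Of the 9 members that passed the filter on low counts, 2 fell in edgeR's quasi-likelihood test at an adjusted p under 0.05 and 0 rose; over all 9992 genes tested, 3.80% fell and 5.21% rose. All 9 fold changes were below 0, as were 49.8% over all genes tested, with a median of -0.81 on the log2 scale against 0.00 over all genes tested, and 4 of them had an unadjusted p under 0.05. Sesn2 did not pass the filter. Values are the lowest, the median and the highest library of each group, followed by the mean ± SD over 12 control and 15 carmofur libraries and the log2 fold change ± SE.

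**Figure D1:**
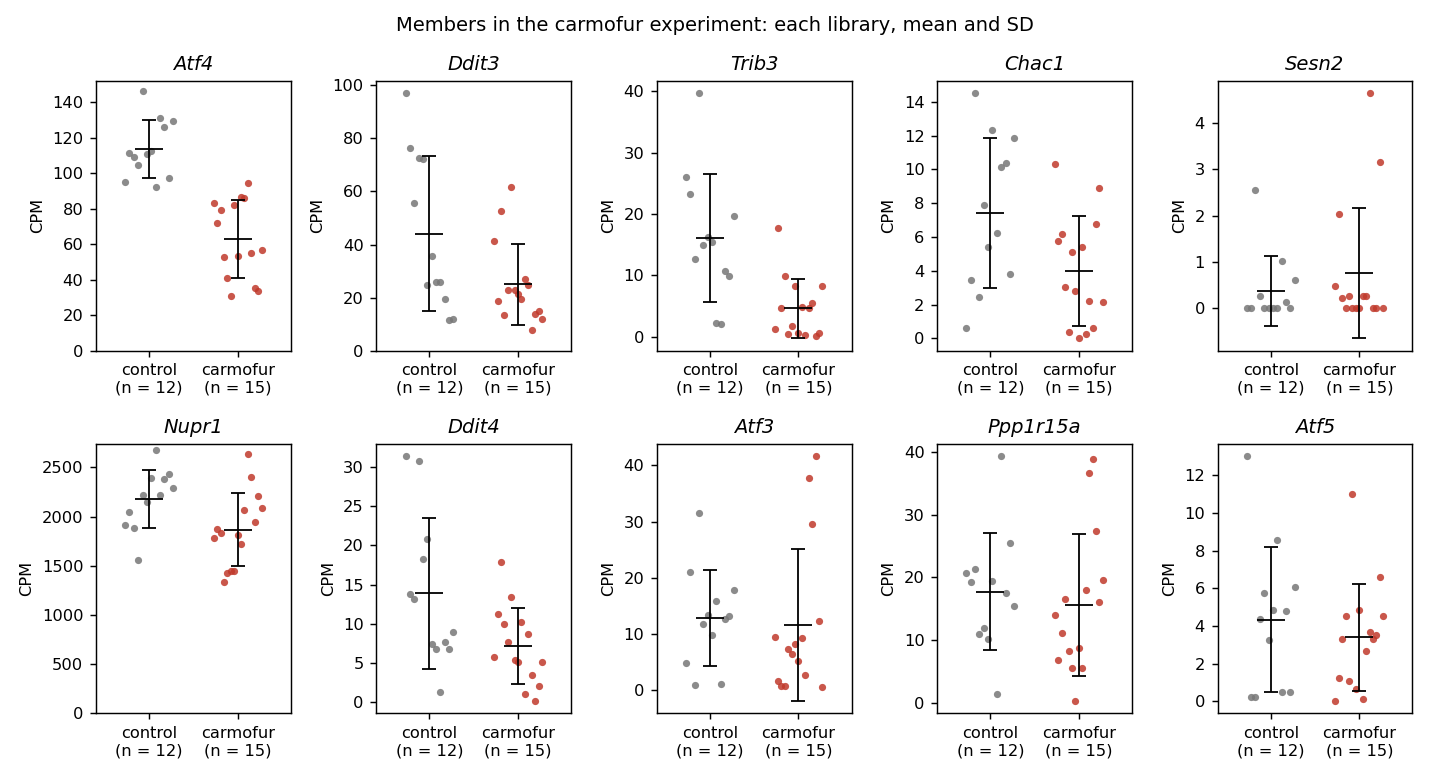
Levels of the 10 members in CPM (vertical axes, linear) in each of the 12 control and 15 carmofur libraries, with the mean and SD as black bars. Atf4 separates the groups except for 1 carmofur library at 94.6 CPM, while the other members overlap between groups.

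Atf4, the transcription factor at the centre of the pathway (chr15:80255184-80257541 in mm10), ran from 91.9 over 111 to 146 CPM in controls and from 30.8 over 56.8 to 94.6 CPM with carmofur. Of the 15 carmofur libraries, 14 lay below all 12 controls; complete separation of the groups on that side was seen for 0.180% of genes, and Atf4 missed it through 1 library. That library, carmofur 11 at 94.6 CPM, lay above control 8 (91.9 CPM). The mean was 1.81-fold lower, at 62.8 ± 21.8 CPM (n = 15) against 114 ± 16.4 (n = 12), with a log2 fold change of -0.85 ± 0.16 (edgeR adjusted p = 0.000234). The call was kept without any single library set, and without carmofur control 1 and carmofur 8 and 10, but summing each set of 3 consecutive library numbers gave an adjusted p of 0.0577.

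Ddit3, which encodes the pro-apoptotic partner CHOP (chr10:127290774-127296288), ran from 11.7 over 30.9 to 97.1 CPM in controls and from 7.90 over 21.2 to 61.8 CPM with carmofur. The groups overlapped over most of their range, since the 6 controls with the highest library numbers were as low as many treated libraries. The log2 fold change was -0.81 ± 0.32 (edgeR adjusted p = 0.123), which did not pass. It depended on the libraries and blocks: it was -0.42 without library set 1 (edgeR adjusted p = 0.606) and -1.13 without set 9 (edgeR adjusted p = 0.0153), both control sets. With the block of library numbers as a covariate it was -1.09 (edgeR adjusted p = 0.00328), and with summed library sets -0.84 (edgeR adjusted p = 0.376).

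The related transcription factors Atf5 and Atf3 showed no change that passed the test. Atf5, an ATF4-like factor with its own translational control (chr7:44812256-44816658), ran from 0.203 over 4.57 to 13.03 CPM in controls and from 0 over 3.31 to 11.04 CPM with carmofur. Its log2 fold change was -0.34 ± 0.69 (edgeR adjusted p = 0.881). Atf3, a stress-induced factor that mostly represses (chr1:191170296-191218039), ran from 0.853 over 12.9 to 31.5 CPM in controls and from 0.536 over 7.37 to 41.7 CPM with carmofur. The carmofur group held both the lowest and the highest Atf3 libraries of the experiment, and the log2 fold change was -0.15 ± 0.57 (edgeR adjusted p = 0.948).

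Trib3, a pseudokinase induced by ATF4 and CHOP that feeds back on ATF4 and restrains AKT (chr2:152337422-152344032), ran from 2.03 over 15.2 to 39.7 CPM in controls and from 0.161 over 4.63 to 17.7 CPM with carmofur. Of the 15 carmofur libraries 7 lay below all controls and 14 below the control median, so the groups differed in their bulk but overlapped. The mean was 3.50-fold lower, at 4.58 ± 4.89 CPM (n = 15) against 16.04 ± 10.4 (n = 12), and the log2 fold change was -1.79 ± 0.58 (edgeR adjusted p = 0.0412). The call was lost without any of library sets 1, 3, 4, 5, 6, 8 or 9 (adjusted p from 0.0545 to 0.176), without carmofur control 1 and carmofur 8 and 10 (0.0960), and with summed library sets (0.0676).

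The other feedback gene, Ppp1r15a, encodes GADD34, the subunit that brings the phosphatase to eIF2alpha and ends the response (chr7:45522916-45526268). It ran from 1.303 over 18.3 to 39.4 CPM in controls and from 0.218 over 13.96 to 38.9 CPM with carmofur, with ranges that almost coincided. Its log2 fold change was -0.18 ± 0.43 (edgeR adjusted p = 0.900).

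Among the effector genes, none passed the test. Chac1, a glutathione-degrading enzyme (chr2:119351229-119354381), ran from 0.592 over 7.06 to 14.5 CPM in controls and from 0 over 3.02 to 10.3 CPM with carmofur, at -0.89 ± 0.61 on the log2 scale (edgeR adjusted p = 0.486). Ddit4, which encodes the mTORC1 inhibitor REDD1 (chr10:59949669-59951834), ran from 1.27 over 11.1 to 31.4 CPM in controls and from 0.161 over 5.78 to 17.9 CPM with carmofur. The log2 fold change of Ddit4 was -0.95 ± 0.49 (edgeR adjusted p = 0.292), and -1.43 with the library block as a covariate (edgeR adjusted p = 0.0388). Without single library sets it ran from -1.24 to -0.59 and did not pass. Sesn2, a stress-induced inhibitor of mTORC1 (chr4:132492032-132510501), was at 0 in 7 of 12 controls and in 7 of 15 carmofur libraries. The highest Sesn2 values were 2.56 CPM in a control and 4.63 CPM in a carmofur library, so most libraries were at or near the detection limit and no fold change is given.

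Nupr1 (chr7:126623249-126630861) was the most abundant member and had the narrowest relative spread. It ran from 1555 over 2220 to 2675 CPM in controls and from 1340 over 1831 to 2634 CPM with carmofur. Of the carmofur libraries 13 of 15 lay below the control median, but only 4 lay below all controls. The log2 fold change was -0.22 ± 0.09 (edgeR adjusted p = 0.127). Of 23 alternatives, 3 gave a call for Nupr1. These included the fit without library set 6, a carmofur set (-0.32, edgeR adjusted p = 0.00899), and limma-voom with quality weights (-0.28, adjusted p = 0.0363). The fall was smaller and did not pass with the library block as a covariate (-0.15, edgeR adjusted p = 0.295). The same held without library set 3, a carmofur set (-0.13, edgeR adjusted p = 0.445). Within blocks 1, 2 and 3 alone the log2 fold change was -0.29, 0.04 and -0.22, and none passed.

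In the carmofur experiment the library numbers form 3 blocks of 12, each holding controls and treated libraries, which the labels do not call batches. Within blocks, every carmofur library was below every control for Atf4 in all 3 blocks, as was the case for 3.82%, 4.64% and 5.33% of the genes tested in blocks 1, 2 and 3. Atf4 controls had means of 105 ± 8.90 (n = 3), 121 ± 22.3 (n = 3) and 115 ± 17.0 CPM (n = 6), and the carmofur libraries had 59.9 ± 21.5 (n = 6), 76.2 ± 17.6 (n = 6) and 41.8 ± 13.02 CPM (n = 3). The controls of the 3 blocks were thus within their spread of each other for Atf4. In a fit with a separate effect per block, the log2 fold changes of Atf4 were -0.81 ± 0.26, -0.66 ± 0.26 and -1.45 ± 0.29, with edgeR adjusted p of 0.129, 0.141 and 0.000817, where 1.76%, 8.14% and 6.06% of all genes passed.

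**Figure D2:**
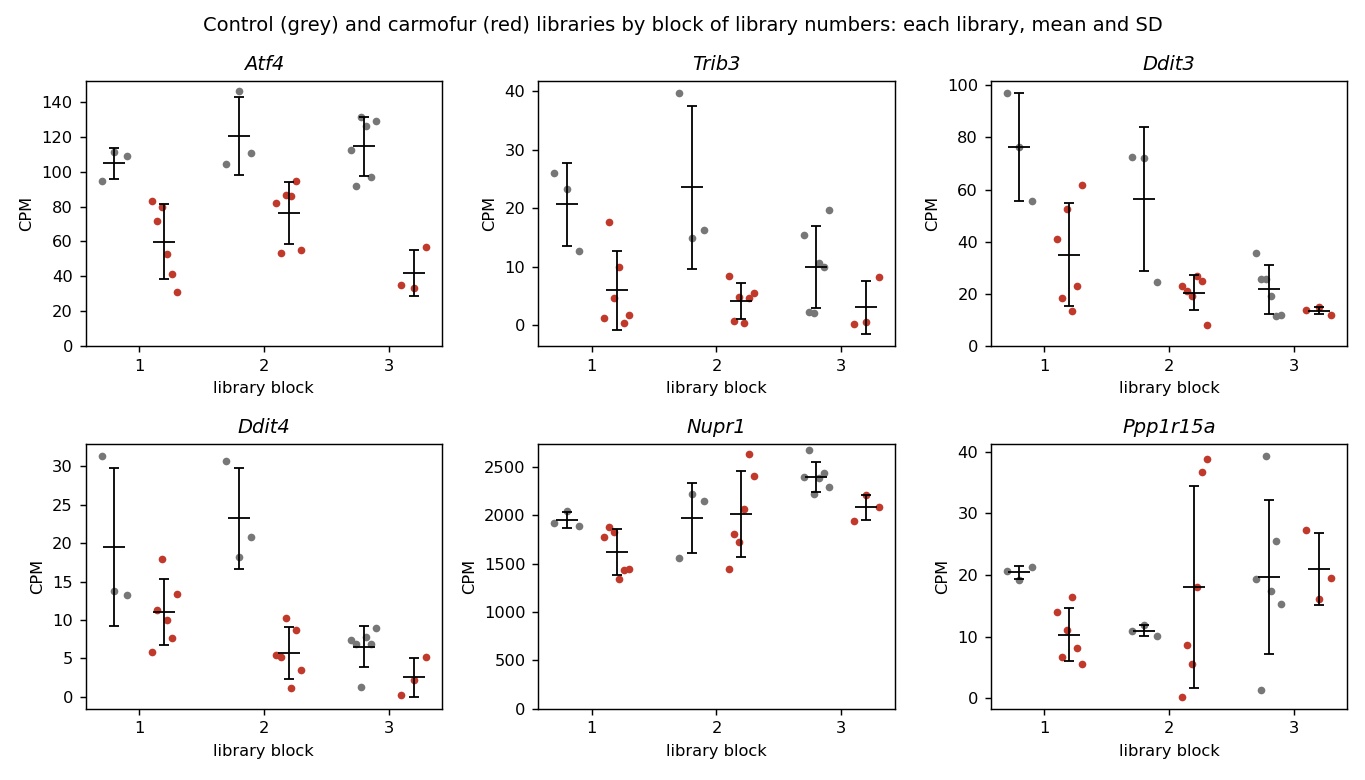
CPM (vertical axes, linear) of 6 members by library block (horizontal axes), with control libraries in grey, carmofur libraries in red and the mean and SD as black bars. Atf4 controls sit at similar levels in the 3 blocks, whereas Ddit3 controls fall from a mean of 76.3 in block 1 to 21.7 CPM in block 3.

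Ddit3 differed between blocks at equal treatment. Its control means were 76.3 ± 20.8 (n = 3), 56.5 ± 27.6 (n = 3) and 21.7 ± 9.34 CPM (n = 6), and its carmofur means were 35.1 ± 19.7 (n = 6), 20.5 ± 6.76 (n = 6) and 13.6 ± 1.47 CPM (n = 3). Both groups were lowest in block 3. In an additive fit, chosen after these values were seen, block 3 was lower than block 1 by -1.64 ± 0.32 on the log2 scale, and the test over the 3 blocks gave an adjusted p of 0.00348 by edgeR. Over all genes 5.02% passed that test, and of the members only Ddit3 and Nupr1 did. Nupr1 went the other way, with control means of 1950 ± 84.6, 1974 ± 364 and 2400.4 ± 156 CPM and block 3 above block 1 by 0.36 ± 0.09 (edgeR adjusted p over the 3 blocks = 0.0423; 0.0810 without carmofur control 1 and carmofur 8 and 10). Ddit4 controls were at 19.5 ± 10.3, 23.2 ± 6.61 and 6.50 ± 2.68 CPM, and block 3 was lower than block 1 by -1.98 ± 0.58 (edgeR adjusted p = 0.0405 for that contrast). Its test over the 3 blocks did not pass by edgeR (adjusted p = 0.0867) but passed by limma-voom (adjusted p = 0.0348).

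The carmofur effect itself was compared between the 3 blocks. The effect differed for 1.78% of all genes and for 0 of 9 members by edgeR, with 0 members at an unadjusted p under 0.05 and 0 by DESeq2 or limma-voom. Trib3 stood at -1.79 ± 1.02, -2.53 ± 1.03 and -1.71 ± 1.16 in blocks 1, 2 and 3, and Ddit3 at -1.12 ± 0.45, -1.46 ± 0.45 and -0.67 ± 0.48. Of these, Ddit3 in block 2 passed on its own (edgeR adjusted p = 0.0370), where 8.14% of all genes did. The signs of Ppp1r15a were mixed, at -0.98 ± 0.77, 0.72 ± 0.82 and 0.09 ± 0.78, as were those of Atf3 at -1.05 ± 1.0, -0.28 ± 1.01 and 0.63 ± 0.99. In block 2, 3 of 6 carmofur libraries were above all 3 controls for Ppp1r15a and the other 3 were below them.

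With palmitic acid, Nupr1 was the only member that passed the test, and it was lower in both batches. In batch 1, 1 of 9 members tested fell and 0 rose by edgeR, where 0.244% of the 9845 genes tested fell and 0.315% rose. In batch 2 it was again 1 of 9, where 0.142% of genes fell and 0.183% rose. The batches share their 3 controls, which the labels assign to neither batch, so in either contrast treatment and batch cannot be told apart. The median log2 fold change of the 9 members was -0.50 in batch 1 and -0.26 in batch 2, against 0.01 and -0.01 over all genes tested.

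**Figure D3:**
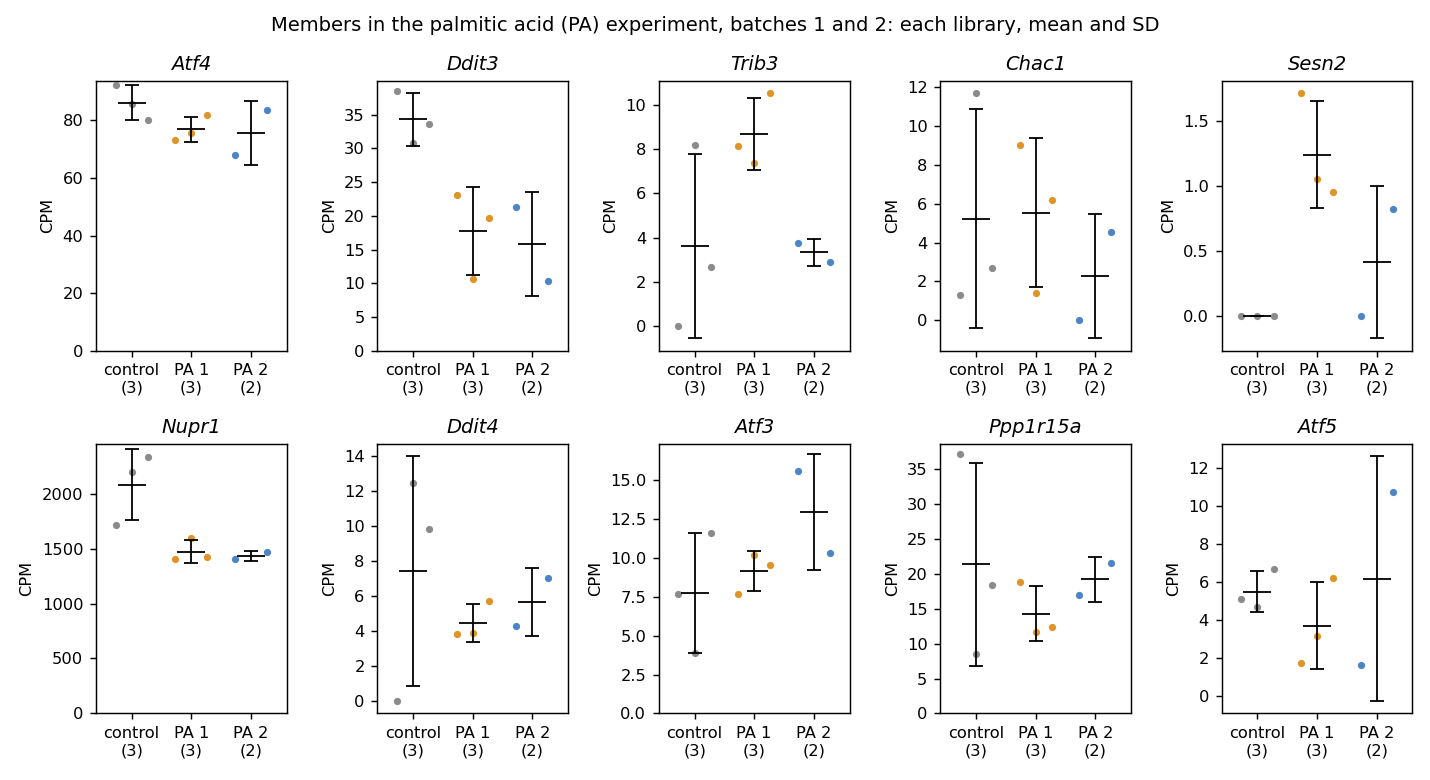
Levels of the 10 members in CPM (vertical axes, linear) in the 3 controls, 3 batch 1 libraries (PA 1) and 2 batch 2 libraries (PA 2) of the palmitic acid experiment, with the mean and SD as black bars. For Nupr1 and Ddit3 every treated library lies below every control, as for 6.09% of genes in batch 1 and 9.02% in batch 2.

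Nupr1 was at 1716, 2195 and 2331 CPM in the controls, at 1402, 1598 and 1420.5 CPM in batch 1, and at 1403 and 1465 CPM in batch 2. All 5 treated libraries were below all 3 controls. The mean was 1.41-fold lower in batch 1 and 1.45-fold lower in batch 2, with log2 fold changes of -0.50 ± 0.12 (edgeR adjusted p = 0.0143) and -0.54 ± 0.13 (edgeR adjusted p = 0.0356). The batch 1 call was lost without control 2 (0.0713), control 3 (0.0829), batch 1 library 1 (0.254) or batch 1 library 3 (0.183). The batch 2 call was lost without any library other than control 1 (0.0605 to 0.567) and with no filter on low counts (0.0772). Without the shallow control 1 both calls were kept, at -0.62 and -0.66.

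Ddit3 had the same order of groups. It was at 38.5, 30.8 and 33.6 CPM in the controls, at 23.2, 10.57 and 19.6 CPM in batch 1, and at 21.3 and 10.3 CPM in batch 2. Every treated library was below every control, as for 6.09% of all genes in batch 1 and 9.02% in batch 2. The log2 fold changes of -0.94 ± 0.43 (p = 0.0314, edgeR adjusted p = 0.587) and -1.09 ± 0.49 (p = 0.0282, edgeR adjusted p = 0.618) did not pass.

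Atf4 was at 92.3, 85.7 and 80.1 CPM in the controls, 73.3, 75.7 and 81.8 CPM in batch 1 and 67.9 and 83.6 CPM in batch 2. The groups overlapped, and the log2 fold changes were -0.16 ± 0.23 and -0.18 ± 0.26. Trib3 was at 0, 8.18 and 2.69 CPM in the controls, 8.15, 7.40 and 10.52 CPM in batch 1 and 3.77 and 2.90 CPM in batch 2. Its batch 1 libraries were close together near the top of the control range, with a log2 fold change of 1.10 ± 0.92 in batch 1 (edgeR adjusted p = 0.860) and -0.26 ± 1.04 in batch 2. The control at 0 was the shallow library, where 3 counts correspond to 3.85 CPM.

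The remaining members were near the detection limit or scattered. Sesn2 had 0 counts in all 3 controls, 4, 3 and 2 counts in batch 1 and 0 and 2 counts in batch 2, too few for a test. Ddit4 was at 0, 12.5 and 9.85 CPM in controls and between 3.86 and 7.04 CPM in the 5 treated libraries. Atf3 was between 3.90 and 11.6 CPM in controls and between 7.72 and 15.6 CPM in treated libraries, and Chac1 between 1.28 and 11.7 and between 0 and 9.004 CPM. For Ppp1r15a the controls spread from 8.57 to 37.2 CPM and held all treated libraries (11.6 to 21.5 CPM) within their range. Atf5 was between 4.68 and 6.72 CPM in controls and between 1.62 and 10.8 CPM in treated libraries. None of these differences passed the test.

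Batch 2 was compared with batch 1 directly. By edgeR 0 of 9 members differed, with 0 at an unadjusted p under 0.05, where 0.102% of all genes did, and DESeq2 and limma-voom also called 0. Nupr1 differed by -0.04 ± 0.13 and Ddit3 by -0.14 ± 0.48 on the log2 scale.

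**Figure D4:**
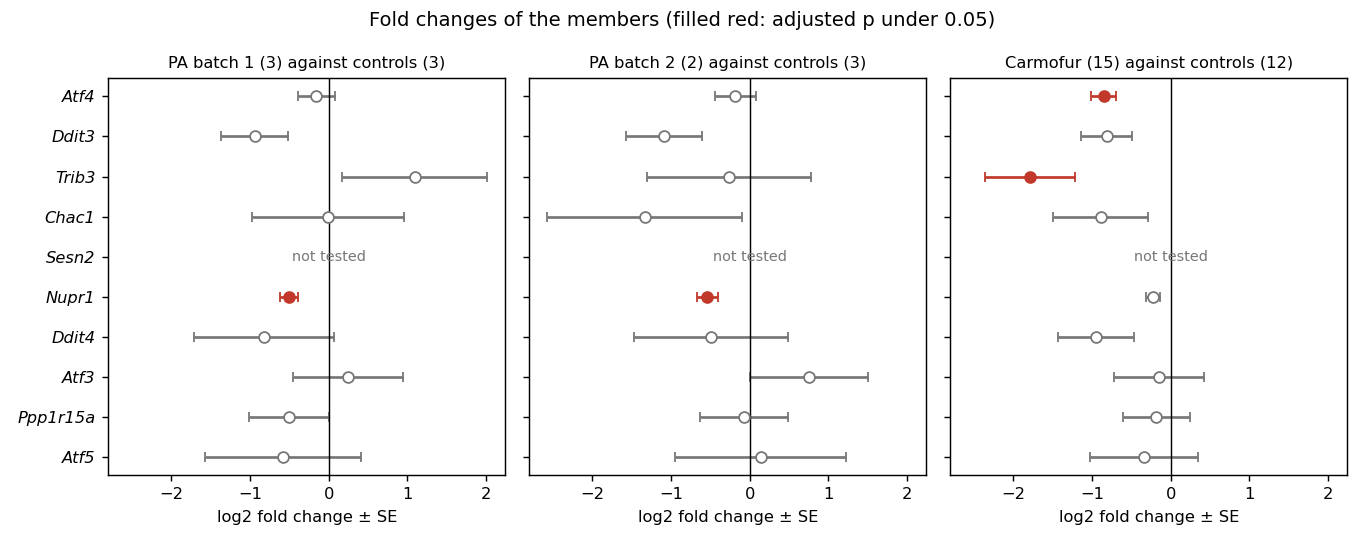
Log2 fold change ± SE (horizontal axes) of each member against its own controls, for palmitic acid batch 1, palmitic acid batch 2 and carmofur, with filled red points where the edgeR adjusted p was under 0.05. Nupr1 passes in the palmitic acid contrasts at -0.50 and -0.54, and Atf4 and Trib3 pass with carmofur at -0.85 and -1.79.

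That Atf4 and Trib3 passed with carmofur and not with palmitic acid is not by itself a difference between the treatments, so the carmofur effect was compared with the mean palmitic acid effect in a fit of all 35 libraries. There 0.818% of 14052 genes differed by edgeR, and 0 of 10 members did, with 1 at an unadjusted p under 0.05. That member was Atf4, whose carmofur effect was lower by -0.68 ± 0.33 (p = 0.0475, edgeR adjusted p = 0.635). Trib3 differed by -2.23 ± 1.29 (edgeR adjusted p = 0.817) and Nupr1 by 0.30 ± 0.18 (edgeR adjusted p = 0.838). DESeq2 and limma-voom also called 0 members.

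Genes around the members were described by lists. These lists were chosen with earlier results of these data known, so the counts beside the share of all genes are descriptions only. Above ATF4 no gene passed with carmofur: 0 of 8 tested eIF2alpha kinases and relays and 0 of 14 subunits of eIF2, eIF2B and the eIF2alpha phosphatase did, with medians of -0.10 and -0.09 on the log2 scale. Since 3.80% of all genes fell and 5.21% rose, counts of 0 in lists of this size are near the background. Among the kinases and relays Gcn1 had the lowest p, at 0.55 ± 0.28 (edgeR adjusted p = 0.274), followed by Dnajc3 at -0.58 ± 0.34 (edgeR adjusted p = 0.383). Eif2ak3, the kinase PERK, was at 15.7 ± 14.5 CPM in controls (n = 12) and 10.3 ± 9.15 with carmofur (n = 15), at -0.59 ± 0.60 (edgeR adjusted p = 0.698). Among bZIP partners of ATF4, CHOP and ATF3, 0 of 10 passed, and Jun had a log2 fold change of 1.45 ± 0.54 (edgeR adjusted p = 0.0924).

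Below ATF4 many genes of amino acid supply were lower with carmofur. Of 12 tested ATF4 targets in amino acid synthesis and one-carbon metabolism 7 fell and 0 rose, against 3.80% of all genes that fell, and their median was -1.14. Asns, asparagine synthetase, had the lowest p of that list, at 704 ± 119 CPM in controls (n = 12) and 244 ± 69.7 with carmofur (n = 15). Psph and Psat1, enzymes of serine synthesis, fell by 1.13 and 0.86 on the log2 scale. Of 11 tRNA synthetases 9 fell and 0 rose (median -0.86), with the lowest p in Tars (-1.02 ± 0.14), Sars (-0.73 ± 0.11) and Gars (-0.94 ± 0.15). Of 9 amino acid transporters 2 fell: Slc3a2, the heavy chain of several exchangers (-0.61 ± 0.15), and Slc38a2, a neutral amino acid carrier (-0.52 ± 0.13). The call of Slc3a2 was lost without library set 7 (0.0868).

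Of 16 other ATF4 and CHOP targets 5 fell and 0 rose, with a median of -0.64. Nars, counted here and among the synthetases, fell by 0.67 on the log2 scale. This list also shares Cars with the synthetases, Gpt2 with amino acid synthesis, and Cebpg and Jdp2 with the bZIP partners, so the counts of these lists are not independent. The falls included Eif4ebp1, a repressor of cap-dependent translation, from 193 ± 34.0 to 110 ± 38.7 CPM (-0.81 ± 0.15, edgeR adjusted p = 0.000169). Ero1a, an oxidase of the endoplasmic reticulum, fell from 617 ± 114 to 258 ± 130 CPM (-1.26 ± 0.23, edgeR adjusted p = 0.000216). Of 16 genes of the IRE1 and ATF6 branches of the unfolded protein response 5 fell and 0 rose (median -0.53). The falls included the chaperones Hspa5 (-1.22 ± 0.12), Hsp90b1 (-0.56 ± 0.08) and Pdia4 (-0.49 ± 0.08). With summed library sets the calls of Slc3a2 (adjusted p = 0.187), Slc38a2 (0.107), Nars (0.0767), Eif4ebp1 (0.0570), Ero1a (0.0605) and Hsp90b1 (0.0663) were lost. Without carmofur control 1 and carmofur 8 and 10, the falls numbered 9 of 13 in amino acid synthesis, 8 of 11 synthetases, 2 of 9 transporters, 6 of 16 other targets and 6 of 16 in the IRE1 and ATF6 branches.

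**Figure D5:**
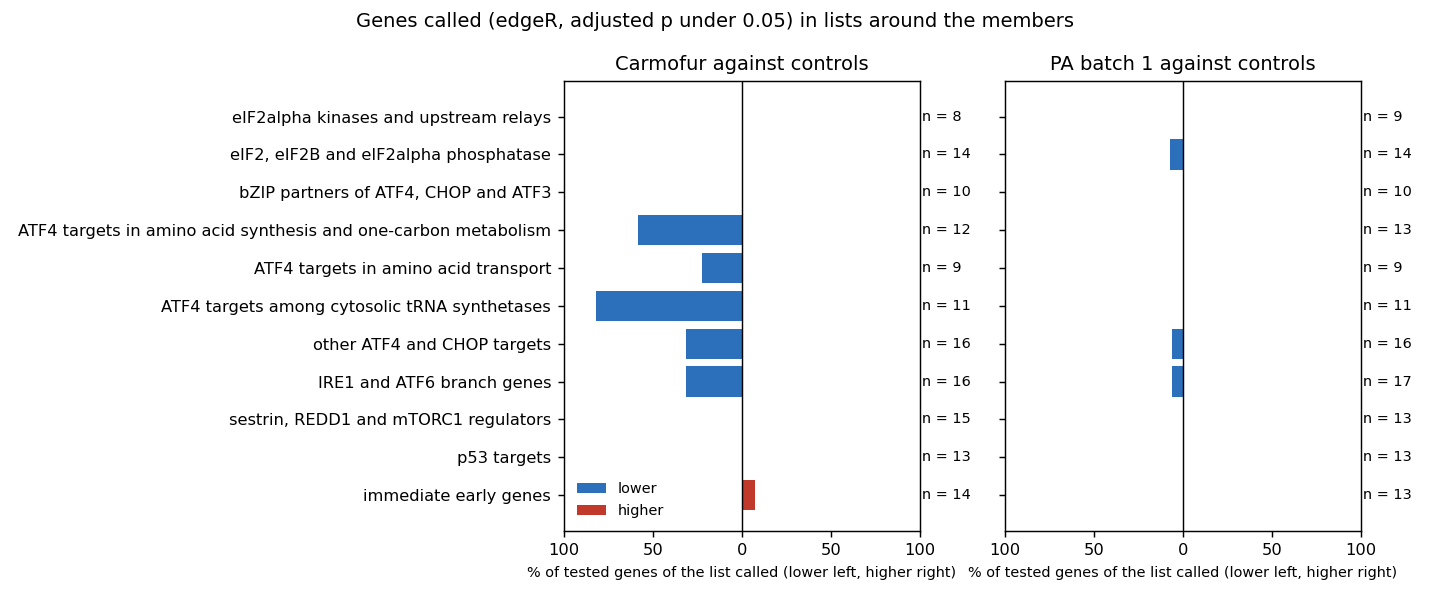
Percentage of the tested genes of each list shown that were called lower (blue, left) or higher (red, right) by edgeR at an adjusted p under 0.05, for carmofur and for palmitic acid batch 1, with the number of genes tested at the right. With carmofur the calls lie in the ATF4 target and unfolded protein response lists and are lower, apart from 1 immediate early gene that is higher.

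Lists that share functions with the members outside the ATF4 target role had counts near the 3.80% of all genes that fell and 5.21% that rose. Of 15 sestrin, REDD1 and mTORC1 regulators and of 13 p53 targets 0 passed. Of 14 immediate early genes 12 had fold changes above 0 and 1 rose, Klf6 (0.59 ± 0.19, edgeR adjusted p = 0.0460), with a median of 0.50; the Klf6 call was lost without library sets 1, 4, 6, 7 or 8 (adjusted p of 0.0516 to 0.411) and with summed sets (0.290). Of 10 colon epithelium markers 1 rose and 0 fell with carmofur, with 4 fold changes below 0 and a median of 0.06 on the log2 scale. The 1 that rose was Krt20, a keratin of mature colonocytes, from 4.22 ± 4.13 to 30.3 ± 10.003 CPM (edgeR adjusted p = 0.000101). Its part in the members' values was not tested.

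With palmitic acid batch 1, 3 of these genes passed. Ero1a fell from 432 ± 73.1 (n = 3) to 228 ± 10.995 CPM (n = 3), at -0.92 ± 0.15 (edgeR adjusted p = 4.55e-05), and in batch 2 to 238 ± 25.2 CPM (n = 2; edgeR adjusted p = 0.00272). Hspa5, the chaperone BiP, fell from 641 ± 82.8 to 427 ± 14.4 CPM in batch 1 (edgeR adjusted p = 0.0128). In batch 2 Hspa5 was at 456 ± 64.9 CPM and did not pass (-0.49 ± 0.15, edgeR adjusted p = 0.192). For Ero1a and Hspa5 the alternatives were not examined with palmitic acid. Eif2s2, the beta subunit of eIF2, fell from 3698 ± 76.0 to 2739.9 ± 115 CPM in batch 1 (-0.43 ± 0.11, edgeR adjusted p = 0.0243). It did not pass in batch 2 (-0.40 ± 0.12, edgeR adjusted p = 0.157). The batch 1 call of Eif2s2 was lost without any library other than control 1. In amino acid synthesis 0 of 13 and among tRNA synthetases 0 of 11 passed in either batch. The synthetase Nars lay at the threshold in batch 1, at -0.47 ± 0.12 (edgeR adjusted p = 0.0506), and 7 of 16 alternatives gave a call there. In batch 2 Nars was at -0.49 ± 0.14 (edgeR adjusted p = 0.121). Fold changes were below 0 for 10 of 11 synthetases in batch 1 and 11 of 11 in batch 2, against 48.6% and 50.9% of all genes tested; the batches share their controls.

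Genes whose pattern over the 27 carmofur libraries was most like that of a member were found by the mean absolute difference of log2 levels, each gene taken relative to its control mean. Predicted genes (Gm numbers and Rik names) and unnamed genes were left out. For Atf4, whose own mean absolute deviation was 0.59, the nearest were Sinhcaf (0.30), the metallothionein Mt2 (0.32) and Cdk5rap3 (0.32). For Ddit3 they were Bnip3, Grcc10 and Ndufa6, at 0.54, 0.55 and 0.55 against a deviation of 0.90, and for Trib3 they were Slc25a33 (1.01), Mpnd (1.10) and Yif1b (1.11) against 1.62. Nupr1 was nearest to the enolase gene Eno1b (0.12 against 0.24). The nearest gene of Chac1 was Eef2kmt (0.77), of Ddit4 Hint3 (0.68), of Atf3 Ckap4 (0.97), of Ppp1r15a Icmt (0.72) and of Atf5 Rnf19b (0.80). Among the members themselves, the one nearest to Trib3 was Ddit4 (1.03 against 1.62). The one nearest to Ddit4 was Ddit3 (0.84 against 1.02), and the one nearest to Ddit3 was Atf4 (0.75 against 0.90). Nupr1, the member that deviated least (0.24), was the nearest member of Atf4 (0.49), Chac1 (1.07), Atf3 (1.23), Ppp1r15a (0.80) and Atf5 (1.20). The member nearest to Nupr1 was Atf4 (0.49).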

How the data were processed

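Gene-level estimated counts, deposited by the authors as 1 table of whole numbers for 54354 genes in 35 libraries, came from Salmon 1.3.0 with the mm10 build, as listed in the submitters' processing notes. RNA was poly(A)-selected and libraries were strand-specific, per the labels' protocols. The sources used here state neither the annotation release nor how transcripts were summed to genes. Rows without a gene name held 0.0216% of counts and stayed in the library totals. Ddit3 has another gene identifier with 0 counts in all libraries, which was not used.

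Groups were taken from the labels. No library looked like a repeat deposit: over 178 within-group pairs, chi-square per degree of freedom was at least 7.40. edgeR 4.0.16 in R 4.3.3 was run with filterByExpr at its defaults, TMM scaling and robust quasi-likelihood F tests, with Benjamini-Hochberg adjustment over all genes tested, at 0.05. The palmitic acid libraries (8), the carmofur libraries (27) and all 35 were fitted separately, with biological coefficients of variation of 0.407, 0.750 and 0.969. Each SE is the absolute log2 fold change over the square root of the F statistic. The scripts were tested on simulated data. Alternatives were RLE and library-size scaling, other filters, limma 3.58.1 voom, DESeq2 1.42.0, libraries or sets left out, library blocks and the replicate number as a block. Gene positions and exon lengths came from GENCODE M21. Intervals of counts and floors cover counting error only.

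The members and gene lists were chosen with earlier results of these data known. The text names all 10 members and the genes of nearest pattern. Changes in genes of each other list were drawn from up to 3 genes of lowest p with carmofur and the gene of lowest p with palmitic acid batch 1. Not all of these genes are given. The result of 1 gene list is not reported here.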

Additional observations from a re-analysis of the deposited data

How the results depend on the processing

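Of the fold changes of single genes under the alternatives, 939 kept their direction and their side of the threshold, 83 lost their call, 14 gained one and 32 changed sign; of the counts of calls, 137 stayed within 1.5 times and 55 did not. Each sign change was in a comparison where that member had not passed the test. Where a value below is given without a value that moved with it, the cause was not tested.

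In the palmitic acid experiment, leaving out 1 library at a time gave 21 to 72 genes called in batch 1 and 2 to 14 between the batches, and 0 to 1 members called in each batch. Where this left batch 2 with 1 library, that library was assumed to vary like the other groups. Over the same omissions Chac1 ran from -0.55 to 1.35, Atf3 from -0.11 to 0.75 and Ppp1r15a from -0.92 to 0.086 in batch 1. In batch 2 Trib3 ran from -0.70 to 0.98, Chac1 from -6.72 to 0.044, Ddit4 from -0.98 to 0.038, Ppp1r15a from -0.49 to 0.52 and Atf5 from -1.73 to 0.96. Between the batches Nupr1 ran from -0.073 to 0.043 and Ddit3 from -0.77 to 0.27. With no filter on low counts, batch 2 had 0 members called and 19 genes differed between the batches (10 in the main analysis), with more genes tested. Limma-voom gave 0.064, 0.37 and -0.68 for Trib3, Ppp1r15a and Atf5 in batch 2. DESeq2 gave 0.028 for Chac1 in batch 1 and 55 genes called in batch 2 (32 by edgeR). With both batches as 1 treated group, 70 genes were called, Trib3 was at 0.66 and Atf5 at -0.27.

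Same-numbered libraries did not deviate together: the correlations of their deviations from group means ran from -0.022 to 0.049, none over 0.1, so the numbers were not taken to pair libraries. With the replicate number as a block, 0 members were called in batch 1 and 0 in batch 2 (Nupr1 adjusted p of 0.0593 and 0.233), with Chac1 at 0.90 in batch 1 and Trib3, Ddit4 and Ppp1r15a at 0.014, 0.031 and 0.033 in batch 2. With carmofur the replicate block gave Trib3 an adjusted p of 0.0621 and Nupr1 one of 0.0207. Of the 3 pairs of a control and a batch 1 library, 1 correlated best with its own number, as did both pairs of a batch 1 and a batch 2 library, 0 of 2 pairs of a control and a batch 2 library and 0 of 12 pairs in the carmofur experiment.

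For carmofur, no filter gave 3541 genes called (901 in the main analysis), 94 whose effect differed across blocks (178) and 831 whose level did (502). The library block as a covariate gave 4 members called: Atf4, Trib3, Ddit3 and Ddit4. Within blocks 1, 2 and 3 alone, with fewer libraries, 234, 512 and 588 genes and 0, 0 and 1 members were called. Block 2 gave Nupr1 0.043 and Ppp1r15a 0.74, and block 3 gave Atf3 0.61, Ppp1r15a 0.083 and Atf5 0.19. Summing library sets gave 334 genes and 0 members, and limma-voom with correlated sets 1 member. Without carmofur control 1 and carmofur 8 and 10, 1 member was called, 105 genes differed in effect across blocks and 1 member in level; with RLE scaling it was also 1 member in level. Leaving out library sets gave 1 to 2 members called, Atf3 from -0.57 to 0.10 and Ppp1r15a from -0.60 to 0.034. Limma-voom called 993 genes for level across blocks, and DESeq2 348 for effect across blocks; DESeq2 was not run for the level test. The carmofur effect minus the palmitic acid effect gave 271 genes by limma-voom, 224 by DESeq2 and 31 to 87 with 1 palmitic acid library left out (115 in the main analysis). Depth limits Sesn2 in all libraries and the low members in palmitic acid control 1, the shallowest library.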
